A study of Mus musculus with 60 samples.

Results

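The genes described here are the ligands and receptors of the classical axon guidance systems: the semaphorins of classes 3 to 7, the plexins and neuropilins, the Eph receptors, the ephrins, the Slit and Robo genes, the netrins and Dcc. They were chosen by gene symbol, with earlier results of these data known, and 65 of the 18193 genes with a usable probe set matched. The set holds 20 semaphorins, 12 plexins and neuropilins, among them Plxna4os1, an antisense transcript named after a plexin, 13 Eph receptors, 8 ephrins, 7 Slit and Robo genes, and 5 netrins and Dcc.

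Their expression was followed in the developing jaws of C57Bl/6 mouse embryos, in a series of the FaceBase consortium that profiles the lower jaw (mandible) and upper jaw (maxilla) genome-wide as they form. Distal and proximal pieces of each jaw were taken daily from E10.5 to E14.5 (embryonic days), and labelled RNA made from 3 micrograms of total RNA was hybridised to Affymetrix mouse arrays. This gave 20 groups of 3 arrays, 60 arrays in all. No genotype or treatment other than the strain is labelled, and nothing says whether the 3 arrays of a group came from separate embryos or pools, so the p-values below measure the spread between arrays, which may be technical.

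Semaphorins act through plexins, and the secreted class 3 semaphorins usually need a neuropilin as the binding partner. Ephrins are tethered to the membrane, those of the A group by a lipid anchor and those of the B group by a transmembrane segment, and they signal to Eph receptors on neighbouring cells. Slits bind Robo receptors and are mostly repulsive, whereas netrin 1 attracts axons through Dcc and repels them through Unc5 receptors. In the embryonic jaws the branches of the trigeminal nerve grow into mesenchyme derived largely from the neural crest, and members of these families also act outside the nervous system, for example in blood vessels and epithelia.

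Values are log2 signals, and a difference of 1 is a 2-fold change. Array medians lay between 6.06 and 6.31. No background was measured, so 4.78 was taken as a floor, the 25th percentile of the array where that was highest. A gene whose group mean does not exceed it is not shown to be expressed, and a difference that includes such a group is a lower bound at best. The titles put the arrays in 4 batches: mandible E13.5 and E14.5; mandible E12.5 with maxilla E12.5 to E14.5; mandible E10.5 and E11.5 with maxilla E11.5; and maxilla E10.5. Distal and proximal pieces of a jaw and age always shared a batch, and the levels of jaws or ages were compared only inside a batch. Tests of whether the position difference changed with jaw or age set position differences of different batches against each other. In distal mandible E11.5 replicate 3 and proximal mandible E11.5 replicate 1 the whole distribution was raised, and in distal maxilla E10.5 replicate 1 the neuronal markers stood at a summed log2 level of 12.14 against 13.98 and 13.54 in the other replicates. Counts of calls in the comparisons that hold these arrays are given with and without them, as are single calls at these ages that were lost without them. The tissue labels read bone, but the bone markers Ibsp, Dmp1 and Phex were at or under 4.78 in most groups of E10.5 and E11.5, so the early pieces are described as jaw tissue. Of all 7 bone markers, 5 rose in the mandible from E10.5 to E11.5 and 0 fell, among them Sp7 (0.88), Alpl (0.8) and Col1a1 (1.5). In whole tissue, fewer cells of a type and less RNA per cell cannot be told apart.

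Of the 65 genes, 59 were above 4.78 in every group, 5 fell to or under it in some groups (Epha5, Epha6, Dcc, Ntn3 and Robo3), and Robo2 was at or under it in all. Between the lowest and the highest of the 20 group means, the median range of the guidance genes was 1.2, against 0.78 for all genes. A range over 2 was found in 12 of them (18.5%), against 11.9% of all genes. Sema4f, a transmembrane semaphorin, had the widest range, from 6.26 in distal mandible at E10.5 to 10.23 in proximal maxilla at E14.5. Dcc ran from 4.33 to 8.06, the receptor Epha5 from 4.37 to 7.73, and Ntn1 from 7.36 to 10.51. These ranges span batches, so they describe the arrays and are no test of age or jaw. As the plots of single arrays show for Sema4f, the order of distal and proximal arrays could turn from one age to the next.

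**Figure D1:**
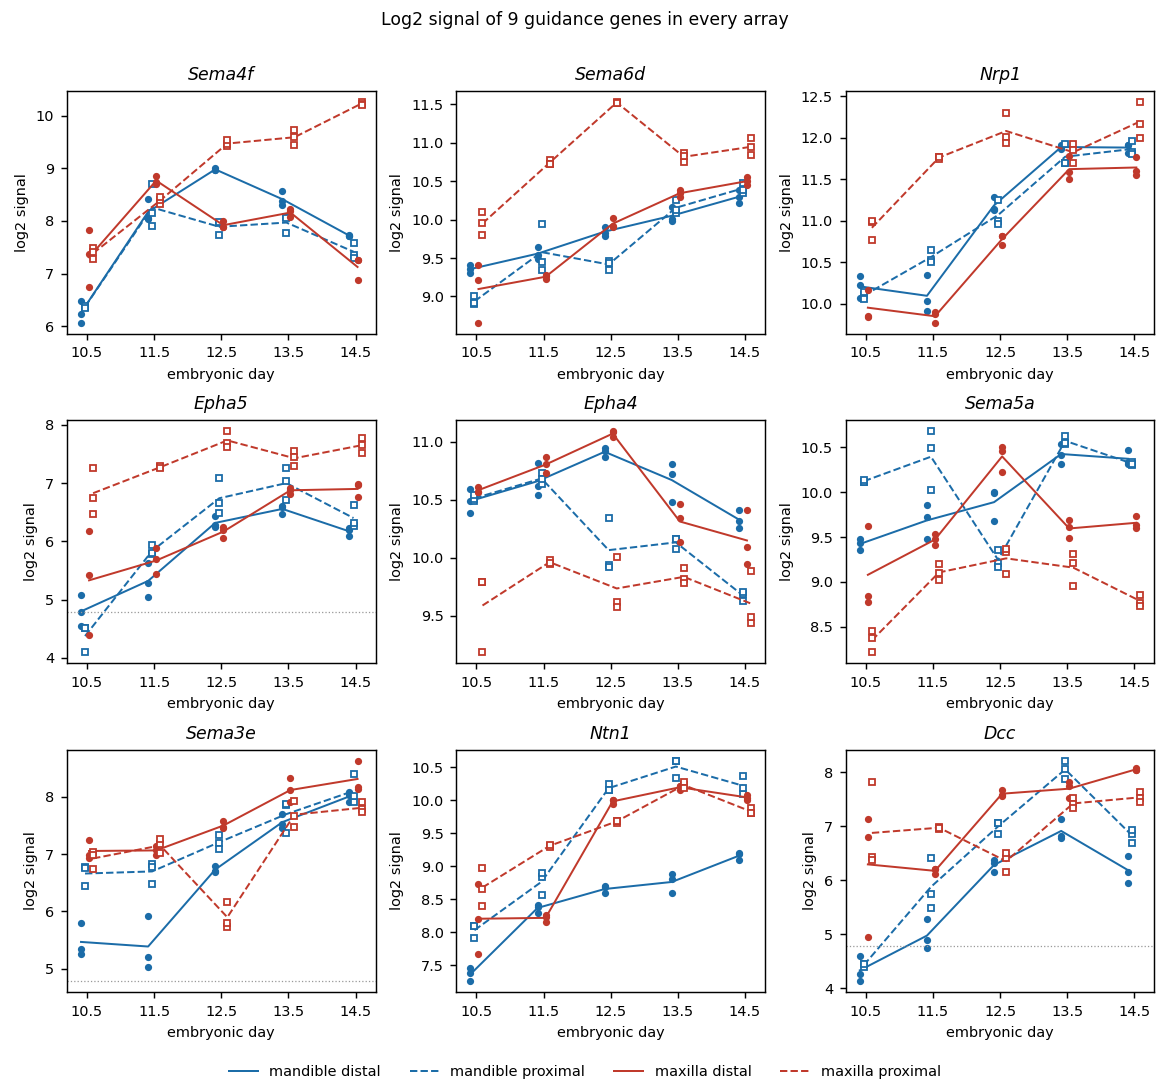
Log2 signal of single arrays of selected guidance genes (vertical axis) by embryonic day (horizontal axis), for distal and proximal pieces of mandible and maxilla. Lines join group means of 3 arrays and cross batches, and the dotted line marks 4.78. In the maxilla at E14.5 Sema4f lay between 6.87 and 7.26 in distal arrays and between 10.21 and 10.26 in proximal arrays.

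The distal and proximal pieces of the maxilla were compared to see which guidance genes are graded along the upper jaw. A gene is said to be called where its limma p, adjusted by Benjamini-Hochberg over all 18193 genes, was under 0.05. By this rule 44 of 65 guidance genes (67.7%) differed, against 50.6% of all genes. Of these, 25 were higher in the distal piece, where 31.6% of all genes were called, and 19 were lower, where 19% of all genes were called. The median difference was 0.05, against 0.04 for all genes, and the median size of the difference was 0.19, against 0.1. All genes include dim ones, and without dim genes the gap between the called shares was narrower in both jaws, as given at the end. The largest differences belonged to Epha5, Sema4f, Nrp1 and Sema6d on the proximal side and to Epha4, Epha1, Sema5a and Sema3d on the distal side.

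Epha5, a receptor for ephrins of the A group that is abundant in neurons, was lower in the distal maxilla. Its distal arrays ran from 4.39 over a median of 6.2 to 6.98, and its proximal arrays from 6.47 over 7.44 to 7.89, so the sets overlapped. The means were 6.19 ± 0.42 and 7.38 ± 0.21 (SD of arrays within groups, n = 15 each), a difference of -1.19 ± 0.0959 (SE, adjusted p = 2.09e-15), or 2.29-fold. Sema4f was lower by a like amount, at -1.16 ± 0.0661 (adjusted p = 6.5e-21), with distal arrays from 6.74 to 8.85 and proximal arrays from 7.27 to 10.26. The difference was -1.55, -1.43 and -3.10 at the last 3 ages. At E14.5 the distal arrays read 7.25, 7.26 and 6.87 against 10.26, 10.22 and 10.21 in the proximal piece, whereas at E11.5 Sema4f was called higher distally by 0.38.

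Epha4, a receptor that binds ephrins of both groups, was higher distally. Its distal arrays ran from 9.95 over 10.57 to 11.09 and its proximal arrays from 9.19 over 9.79 to 10.01, with only a narrow overlap. The difference was 0.84 ± 0.0518 (adjusted p = 1.45e-19), or 1.79-fold, and it was called at all 5 ages. Sema5a, a semaphorin with thrombospondin repeats, was higher distally by 0.71 ± 0.0577 (adjusted p = 2.92e-15) and was also called at all 5 ages. Of these 4 genes, the bases upstream of the annotated start are printed below because they span both directions of the largest maxillary differences. They are RefSeq sequences of build GRCm38.p6, 250 bases each, read 5′ to 3′ on the strand of the gene, and capitals mark the GC box, GGGCGG or its reverse complement. The windows are chr5:84417383-84417632 on the minus strand for Epha5, chr6:82939770-82940019 on the minus strand for Sema4f, chr1:77515089-77515338 on the minus strand for Epha4 and chr15:32244563-32244812 on the plus strand for Sema5a.
Epha5: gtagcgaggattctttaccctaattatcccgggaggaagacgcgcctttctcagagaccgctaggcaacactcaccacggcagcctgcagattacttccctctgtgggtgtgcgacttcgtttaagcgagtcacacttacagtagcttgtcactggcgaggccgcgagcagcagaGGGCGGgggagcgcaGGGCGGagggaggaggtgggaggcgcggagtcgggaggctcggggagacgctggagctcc
Sema4f: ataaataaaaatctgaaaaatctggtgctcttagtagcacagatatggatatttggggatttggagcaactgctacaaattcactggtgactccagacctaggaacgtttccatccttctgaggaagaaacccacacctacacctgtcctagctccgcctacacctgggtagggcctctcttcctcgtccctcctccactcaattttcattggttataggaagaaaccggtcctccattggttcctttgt
Epha4: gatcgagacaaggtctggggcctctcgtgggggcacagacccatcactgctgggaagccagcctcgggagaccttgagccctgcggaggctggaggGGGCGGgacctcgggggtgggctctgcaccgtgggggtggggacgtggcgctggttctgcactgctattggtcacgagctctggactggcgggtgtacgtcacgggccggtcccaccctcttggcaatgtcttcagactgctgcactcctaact
Sema5a: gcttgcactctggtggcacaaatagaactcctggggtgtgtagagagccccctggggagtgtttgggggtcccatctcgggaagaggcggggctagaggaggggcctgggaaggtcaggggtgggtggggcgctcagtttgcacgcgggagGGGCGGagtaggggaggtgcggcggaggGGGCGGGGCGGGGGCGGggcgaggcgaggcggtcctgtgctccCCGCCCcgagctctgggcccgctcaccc

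The windows hold 2 matches in Epha5, 0 in Sema4f, 1 in Epha4 and 5 in Sema5a, where neighbouring matches overlap. Searched on both strands, GGGCGG was found in 42 of the 55 guidance genes with a promoter entry (76.4%), against 7719 of 14452 genes (53.4%). TATAAA, which cannot overlap a GC box, was found in 2 of the 55 (3.64%), against 1513 of 14452 genes. The median GC content of these windows was 64.4% for the guidance genes and 57.6% for all genes. A match describes the letters of the window and is not a shown binding site.

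Among the receptors of the semaphorins, Nrp1, which binds Sema3a and also vascular endothelial growth factor, was lower in the distal maxilla. Its distal arrays ran from 9.77 over 10.81 to 11.78 and its proximal arrays from 10.77 over 11.85 to 12.43. The difference was -0.99 ± 0.0434 (adjusted p = 1.76e-25). It reached -1.91 at E11.5, where distal arrays read 9.9, 9.77 and 9.87 and proximal arrays 11.77, 11.74 and 11.77, and at E13.5 it was -0.20 and not called (adjusted p = 0.179). Nrp2, the neuropilin used by Sema3f, was called higher distally by 0.11. It was called lower distally at E10.5 and E11.5 and higher at E12.5 to E14.5.

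The plexins divided. Plxna3 (-0.49 ± 0.0391) and Plxna4 (-0.41 ± 0.0462), the A-group plexins best known from sensory and sympathetic axons, were lower in the distal maxilla, and Plxna2 (0.38 ± 0.0354) and Plxna1 (0.19 ± 0.0276) were higher. Plxna4 differed by -0.42, -0.38, -0.41, -0.43 and -0.41 at the 5 ages in order, and no change of its position difference with age was detected (limma F test, adjusted p = 0.999). Plxnc1, the receptor of Sema7a, was lower distally by 0.33 on the log2 scale, and Sema7a itself, a membrane-anchored semaphorin, was lower by 0.44. Of the 12 plexins and neuropilins 9 were called, 4 higher and 5 lower.

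Of the 7 secreted class 3 semaphorins, 3 were called higher in the distal maxilla, 1 was called lower and 3 were not called. In all 57.1% of them were called, against 50.6% of all genes. Sema3a, the best known repellent of sensory axons, was higher by 0.55 ± 0.0261 (adjusted p = 4.07e-24) and was called higher at all 5 ages. At E12.5 its distal arrays read 10.61, 10.65 and 10.7, all above the proximal arrays at 9.77, 9.76 and 9.71. Sema3d was higher by 0.66 ± 0.0507 and called at all 5 ages, at E10.5 only with distal replicate 1 (0.39, and 0.29 with adjusted p = 0.105 without it), and Sema3e, which can bind Plxnd1 without a neuropilin, by 0.52 ± 0.0733. Sema3g was the exception, lower by 0.64 ± 0.0461 on the log2 scale.

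Of the 13 semaphorins of classes 4 to 7, 2 were called higher and 8 called lower (76.9% called, against 50.6% of all genes). This split depended on the scaling. With arrays centred on their medians 3 were called higher and 4 lower, and with quantile normalization 2 and 4. Sema6d, a transmembrane ligand of A-group plexins, was lower distally, with distal arrays from 8.66 over 9.92 to 10.55 and proximal arrays from 9.8 over 10.83 to 11.53. The difference was -0.97 ± 0.0457 (adjusted p = 3.3e-24) and was called at all 5 ages. At E12.5 the distal arrays read 9.9, 9.92 and 10.02 and the proximal arrays 11.53, 11.52 and 11.52. Sema6a was lower by 0.29 over all ages, with -0.80 at E11.5 and an uncalled 0.23 at E14.5.

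Eph receptors were called in 10 of 13 cases, 7 higher and 3 lower distally. Beside Epha4, Epha1, a receptor of epithelia, was higher by 0.75 ± 0.0576. Its distal arrays at E11.5 read 7.15, 6.97 and 7.06 and its proximal arrays 6.17, 6.11 and 5.97. The set holds 4 EphB receptors, Ephb1, Ephb3, Ephb4 and Ephb6, and lacks Ephb2. All of these except Ephb1 were called higher, among them Ephb3 by 0.39 ± 0.0274, which was called at all 5 ages and reached 0.93 at E12.5. Ephrins of the A group were called higher in 4 of 5 cases, led by Efna4 (0.38 ± 0.0255) and Efna1 (0.27 ± 0.0321). Efnb2, the ephrin of arterial endothelium and a partner of EphB receptors, was lower by 0.25 ± 0.0272 on the log2 scale. When arrays were centred or quantile-normalized again, Epha10 (-0.20) lost its call and no called Eph receptor or ephrin changed its direction.

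Slit3 (0.35 ± 0.0447), Slit2 (0.25 ± 0.0399), Robo1 (0.27 ± 0.0385) and Robo4 (0.13 ± 0.0363), a Robo of blood vessels, were called higher in the distal maxilla, and no Slit or Robo gene was called lower. At E12.5 the distal arrays of Slit3 read 7.82, 7.86 and 7.81 and its proximal arrays 7, 7.19 and 7.04. Ntn1 was lower by 0.22 ± 0.055 on the log2 scale over all ages, the average of -0.48, -1.09, 0.31, -0.04 and 0.21 at the 5 ages in order, of which the first 3 were called. Without distal replicate 1 the difference at E10.5 was -0.21 and not called (adjusted p = 0.191). The average was no longer called with the mean of its probe sets (-0.09, adjusted p = 0.078) or without replicate 2 (-0.18, adjusted p = 0.0536). Dcc was not called over all ages, with a difference of 0.13 ± 0.124. It was called lower distally at E11.5 (-0.80) and higher at E12.5 (1.25), where the group means were 7.61 distally and 6.36 proximally.

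Markers of other cell types moved with position in the maxilla. All 15 neuronal markers were lower in the distal piece, with a median difference of -3.37 over all ages, and of -2.64, -3.86, -4.66, -1.69 and -3.91 at the 5 ages in order. Their summed log2 level lay between 12.25 and 14.2 in the distal groups and between 15.72 and 16.58 in the proximal groups, and no neuronal marker was at or under 4.78 in any maxillary group. The markers of glia (5 of 5 lower, median -1.02, summed level 11 to 12 distally and 13.09 to 13.99 proximally), of muscle (12 of 14 lower, median -0.65) and of cartilage (10 of 14 lower, median -0.45) were also lower over all ages. For muscle the medians were -0.53, -2.48, 0.28, -0.04 and -0.33 at the 5 ages in order, and 0 of 14 markers were called from E12.5 onwards. Cartilage markers at E10.5 were called higher in 1 case and lower in 1 (median 0.08). All 16 markers of surface epithelium were higher, with a median of 0.9 and a summed level of 13.04 to 14.31 distally and 12.08 to 13.24 proximally. The part of these cell types in the differences of the guidance genes was not tested. Without distal maxilla E10.5 replicate 1, the call count was 45, with 27 higher and 18 lower.

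The same comparison in the mandible asked which guidance genes are graded along the lower jaw. Of the 65 genes, 38 (58.5%) were called, against 36.3% of all genes. There were 23 higher in the distal piece, where 18.3% of all genes were called, and 15 lower, where 17.9% were called. The median size of the difference was 0.12, against 0.07 for all genes. With arrays centred on their medians the split was 26 higher and 9 lower, and 4712 of all genes were called higher and 2644 lower in place of 3335 and 3261. In the maxilla that centring gave 30 higher and 13 lower of the guidance genes, and 9196 and 2620 in place of 5748 and 3465 of all genes.

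**Figure D2:**
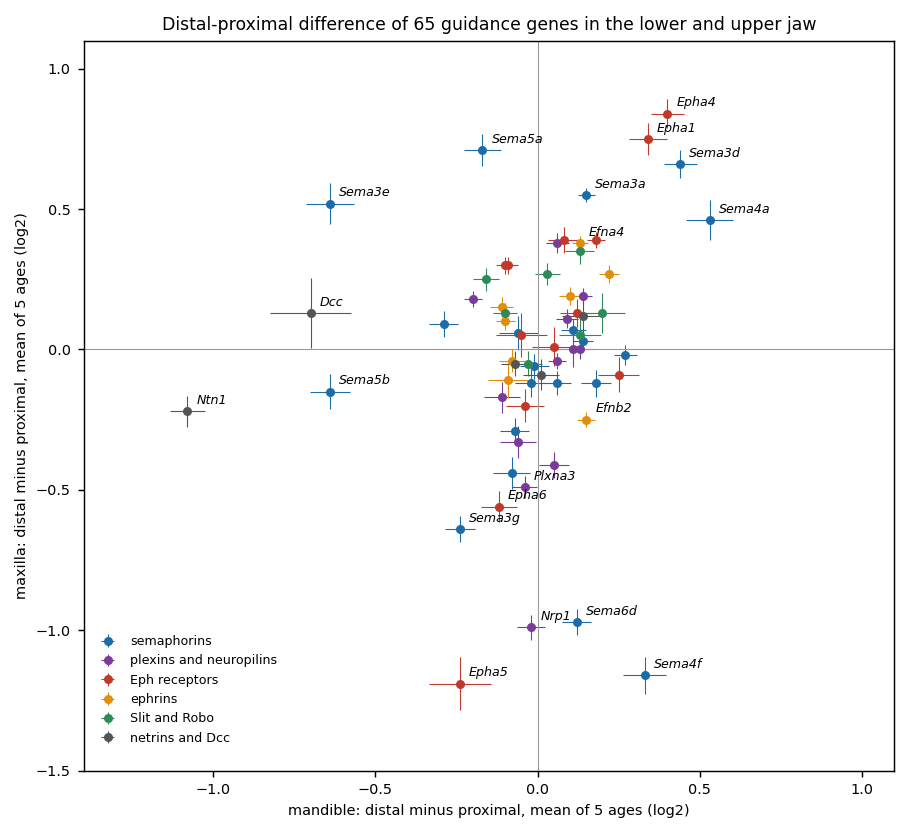
Log2 difference of the distal over the proximal piece for each guidance gene, with the mandible on the horizontal and the maxilla on the vertical axis, averaged over 5 ages, with bars of 1 SE and colours for families. Ntn1 lies far to the left, with a mandibular difference of -1.08 and a maxillary one of -0.22, and Sema4f and Sema6d lie low at -1.16 and -0.97 in the maxilla with 0.33 and 0.12 in the mandible.

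Ntn1 had the largest difference in the mandible. Its distal arrays ran from 7.26 over 8.6 to 9.2 and its proximal arrays from 7.91 over 10.15 to 10.6. The means were 8.46 ± 0.09 and 9.54 ± 0.13 (SD, n = 15 each), a difference of -1.08 ± 0.055 (adjusted p = 3.36e-22), or 2.11-fold. It was the only guidance gene called in the same direction at all 5 ages in the mandible, with -0.67, -0.40, -1.53, -1.75 and -1.06 at the 5 ages in order, although at E11.5 the call was lost when arrays were centred or quantile-normalized again. At E13.5 the distal arrays read 8.81, 8.6 and 8.88 and the proximal arrays 10.59, 10.6 and 10.34. Its receptor Dcc was lower distally as well, by 0.70 ± 0.124 on the log2 scale, and at E13.5 read 6.79, 6.83 and 7.13 distally against 7.88, 8.22 and 8.07 proximally. Both E10.5 groups of Dcc were at or under 4.78, so its average is a lower bound at best.

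Semaphorins were called in 14 of 20 cases in the mandible, 9 higher and 5 lower distally. Sema4a, a transmembrane semaphorin, was higher by 0.53 ± 0.0712 (adjusted p = 1.65e-08), and at E13.5 its distal arrays at 7.76, 8.24 and 7.68 all exceeded the proximal arrays at 7.18, 7.26 and 6.83. Sema3d was higher by 0.44 ± 0.0507, with 1.02 at E12.5. Sema5b was lower by 0.64 ± 0.0612 on the log2 scale (adjusted p = 1.31e-12), and at E13.5 its distal arrays read 6.14, 6.32 and 6.31 against 7.19, 7.08 and 7.11. Sema3e was lower by the same amount, 0.64 ± 0.0733, but at the early ages. At E10.5 its distal arrays read 5.26, 5.34 and 5.8 and its proximal arrays 6.78, 6.45 and 6.75, and by E13.5 and E14.5 the differences were -0.14 and -0.09 and not called.

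Eph receptors were called in 8 of 13 cases, 5 higher and 3 lower. Epha4 (0.40 ± 0.0518) and Epha1 (0.34 ± 0.0576) were higher distally, as in the maxilla, but from E12.5 onwards. Epha4 differed by -0.02 and -0.02 at E10.5 and E11.5 and by 0.85, 0.54 and 0.66 afterwards, and Epha1 by -0.09 and -0.01 and then by 0.60, 0.59 and 0.61. Epha5 was called lower (-0.24), but the call was lost with arrays centred (adjusted p = 0.0706), with quantile normalization (0.123) and without replicate 2 (0.116) or 3 (0.236), and its proximal group of E10.5 was under 4.78. Ephrins were called in 6 of 8 cases, 4 higher and 2 lower, with Efna1 at 0.22 ± 0.0321. The calls of Efna5 (-0.10) and Efnb3 (-0.11) were lost with arrays centred (adjusted p = 0.0565 and 0.054).

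Plexins and neuropilins were called in 4 of 12 cases in the mandible (33.3%, against 36.3% of all genes). Plxnb2, a receptor of class 4 semaphorins, was lower distally by 0.20 ± 0.0279 on the log2 scale, and Plxna1 (0.14), Plxnb1 (0.13) and Nrp2 (0.09) were higher. Nrp1 differed by -0.02 ± 0.0434, Plxna4 by 0.05 ± 0.0462 and Plxna3 by -0.04 ± 0.0391, and none of them was called. Slit3 was higher by 0.13, a call lost without replicate 3 (0.04, adjusted p = 0.654). Slit2 was lower by 0.16, but with the mean of its probe sets the difference was 0.01. Robo2 was called at 0.2, but all of its groups were at or under 4.78.

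Markers of several cell types moved with position in the mandible too. All 14 muscle markers (median -1.65) and all 14 cartilage markers (median -0.95) were lower distally, with summed log2 levels of 11.08 to 15.56 and 12.37 to 13.44 distally against 13.12 to 16.5 and 13.14 to 14.98 proximally. Of the 15 neuronal markers 12 were lower and 1 higher (median -1.18), with a summed level of 11.75 to 12.44 distally and 11.34 to 13.95 proximally, and Snap25, Pou4f1 and Syt4 were at or under 4.78 at E10.5. All 12 macrophage markers were lower (median -0.33), 5 of 5 glial markers were lower (median -0.32), 8 of 12 endothelial markers were lower (median -0.11), and 14 of 16 epithelial markers were higher (median 0.72). These calls are on averages over 5 ages. At E10.5, 6 macrophage markers were higher distally and 0 lower (median 0.35), and 6 endothelial markers were higher and 1 lower (median 0.2). Of the neuronal markers 3 were higher and 0 lower at that age (median -0.01). The part of these cell types in the differences of the guidance genes was not tested. Without the 2 raised arrays of E11.5, 39 guidance genes were called, 24 higher and 15 lower.

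In both jaws 13 guidance genes (20%, against 11% of all genes) were called higher in the distal piece, among them Epha1, Epha2, Epha4, Ephb3, Efna1, Efna2, Efna4, Sema3a, Sema3d and Sema4a. Another 4 were called lower in both, namely Epha5, Ntn1, Sema3g and Sema5b, as were 8.32% of all genes. A further 13 (20%, against 5.8% of all genes) were called in opposite directions. Efnb2, Sema4f, Sema4d and Sema6d were higher distally in the mandible and lower in the maxilla. Ephb4, Epha3, Robo4, Slit2, Efna5, Efnb3, Plxnb2, Sema5a and Sema3e were lower distally in the mandible and higher in the maxilla. With arrays centred on their medians, Efna5, Efnb3, Ephb4, Robo4 and Sema5a were no longer called in the mandible and Sema4d and Sema5b were no longer called in the maxilla. The mandibular call of Epha3 (-0.10) was lost with the mean of its probe sets (-0.08, adjusted p = 0.063) and without replicate 1 (adjusted p = 0.051) or 2 (0.109). That of Robo4 was lost without replicate 1 (adjusted p = 0.258) or 2 (0.224), and that of Slit2 without replicate 1 (-0.11, adjusted p = 0.116). The mandibular difference of Slit2 also turned with the mean of its probe sets. Of the 13, Efnb2, Efna5, Epha3, Plxnb2 and Sema5a were called in both directions at different ages in the mandible, and Efna5, Epha3 and Sema4f in the maxilla. When each group mean stood for 1 sample, only Ntn1, Sema4a and Sema5b were called in the mandible, and so none of the 13. There were 13 guidance genes called in neither jaw (20%, against 38.3% of all genes).

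The difference between the jaws was tested as an interaction, the mandibular position difference minus the maxillary one. It was called for 41 of 65 guidance genes (63.1%), against 39.9% of all genes. Of these, 18 were positive and 23 negative, where 16.1% and 23.8% of all genes were. The single position differences lie inside batches, but the interaction sets differences of different batches against each other. Sema4f had an interaction of 1.49, from 0.33 in the mandible and -1.16 in the maxilla, and Sema6d one of 1.09, from 0.12 and -0.97, which was 0.39 with the mean of its probe sets. Nrp1 followed with 0.96, from -0.02 and -0.99. On the other side Sema3e had -1.16, from -0.64 and 0.52, Sema5a -0.88, from -0.17 and 0.71, and Ntn1 -0.86, from -1.08 and -0.22. Of the 20 semaphorins 15 had a called interaction, and of the 12 plexins and neuropilins 7. Neuronal markers differed in the same comparison, with 15 of 15 called and a median of 2.06, and their part was not tested. When the group means stood for single samples, so that the spread between ages was the error, only Plxna4 and Sema6d among the guidance genes had a called interaction. Without the 2 raised mandibular arrays 41 interactions were called, and without distal maxilla E10.5 replicate 1, 40.

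The position differences also depended on age. An F test for a change of the position difference over the 5 ages was called for 47 guidance genes in the mandible (72.3%, against 43.6% of all genes) and for 42 in the maxilla (64.6%, against 37.7%). Ages of different batches enter these tests. Without the 2 raised arrays the mandibular count was 43, and without distal maxilla E10.5 replicate 1 the maxillary count was 42. In the mandible 15 guidance genes (23.1%, against 9.96% of all genes) were called in both directions at different ages, and 13 (20%, against 44.3%) at no age. In the maxilla 12 (18.5%, against 4.74%) were called in both directions and 11 (16.9%, against 40.2%) at no age. Epha4, Ephb3, Sema3a, Sema3d and Sema5a were called higher distally at all 5 ages in the maxilla (7.69%, against 1.77% of all genes), and Plxna3, Plxna4 and Sema6d were called lower at all 5, as were 3.76% of all genes. At E10.5 the calls of Sema3d and Plxna3 (-0.25, adjusted p = 0.0687) were lost without distal replicate 1.

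**Figure D3:**
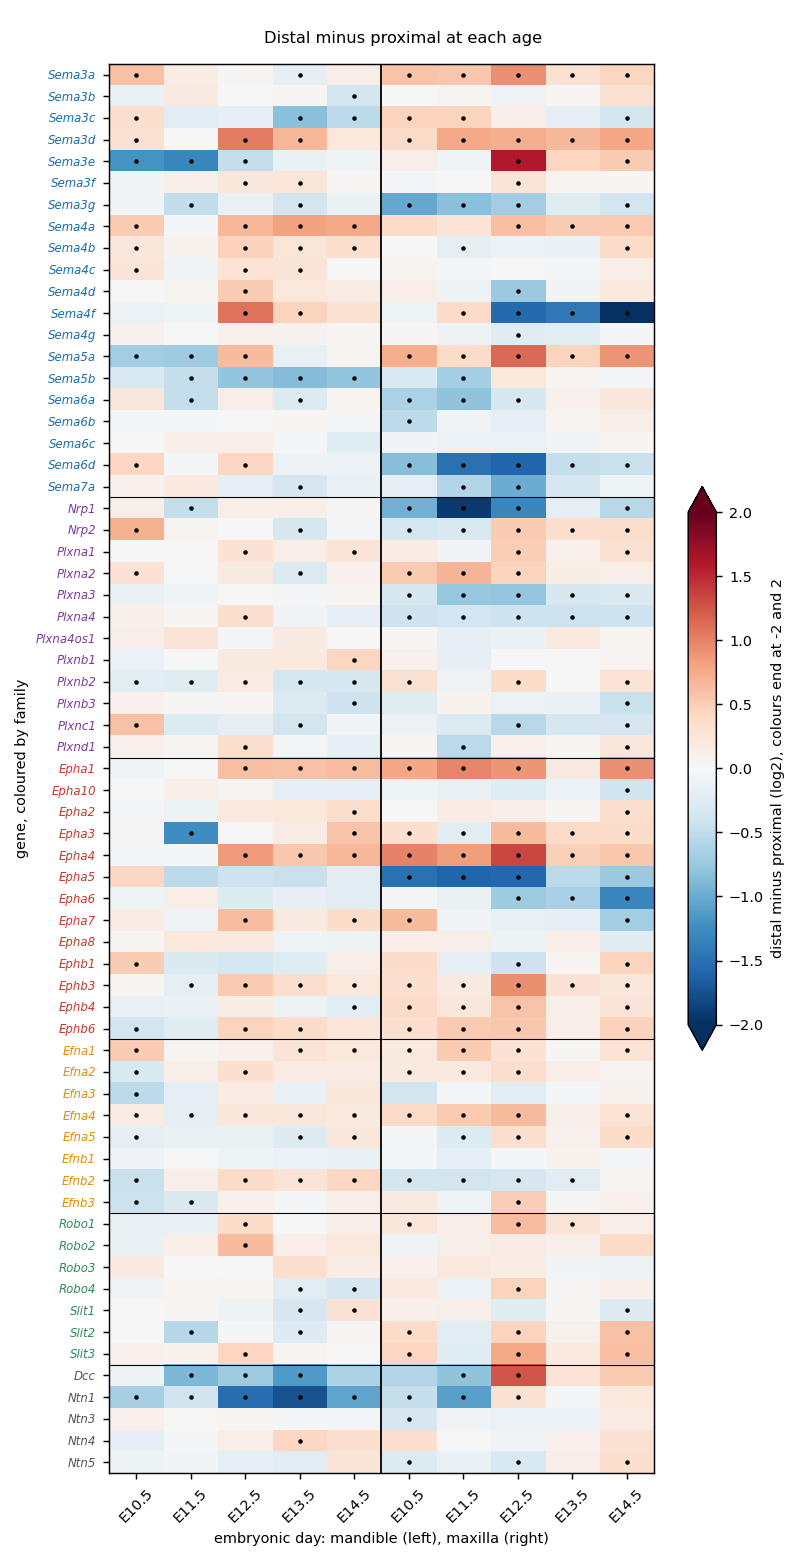
Distal minus proximal log2 difference of the guidance genes (rows, by family) at each embryonic day in the mandible and in the maxilla. Colours end at -2 and 2, which Sema4f exceeds at E14.5 in the maxilla with -3.10, and dots mark an adjusted p under 0.05. The column of mandible E11.5 holds 14 dots, all of lower distal level.

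At single ages of the mandible, 23, 14, 28, 30 and 23 guidance genes were called in order of age, against 19.1%, 8.93%, 32.7%, 25.3% and 26.8% of all genes. At E10.5 there were 13 higher and 10 lower distally, where 9.83% and 9.26% of all genes were. Without replicate 2 of every group, 11 were called at E10.5 and 12 at E13.5, and without replicate 2 or 3, 14 or 15 at E14.5. At E11.5 all 14 (21.5%) were lower in the distal piece, where 5.75% of all genes were called lower and 3.18% higher. When only the arrays of that age and jaw were fitted, 3 were called. Without the 2 raised arrays 12 were called, 1 higher and 11 lower, and without replicate 1 or 2 of every group 7 or 9 were called. Epha3, a receptor for ephrins of the A group, was lower there, with distal arrays at 10.29, 10.22 and 10.52 and proximal arrays at 11.65, 11.55 and 11.54 (-1.24 ± 0.0656, adjusted p = 9.14e-20). At E14.5 it was higher distally by 0.57, with 11.67, 11.69 and 11.7 against 11.07, 11.14 and 11.13. Slit2 (-0.57), Sema3e (-1.31) and Sema5a (-0.71) were also lower at E11.5, and differed by -0.47, -1.51 and -0.80 without the 2 raised arrays. Nrp1 (-0.47), Dcc (-0.90) and Ephb3 (-0.19) were called lower too, but without those arrays they differed by -0.33, -0.52 and -0.09 and were not called (adjusted p = 0.0617, 0.396 and 0.491).

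At E12.5, 24 of the 28 called genes were higher distally, while 15.4% of all genes were called higher and 17.3% lower. At E13.5 there were 14 higher and 16 lower (12.4% and 12.9% of all genes), and at E14.5 15 higher and 8 lower (15% and 11.8% of all genes). At E12.5 Sema4f was higher by 1.09, with distal arrays at 9.01, 8.97 and 8.96 and proximal arrays at 7.96, 7.98 and 7.73. Sema5a, lower at E10.5 and E11.5 by 0.70 and 0.71 on the log2 scale, was higher by 0.64 at E12.5. Efnb2 was lower at E10.5, with distal arrays at 11.46, 11.39 and 11.42 and proximal arrays at 11.88, 11.89 and 11.85, and higher at E12.5 (0.39), E13.5 (0.25) and E14.5 (0.42). Nrp2 was higher at E10.5 by 0.71, with 9.85, 10.02 and 10.1 against 9.25, 9.29 and 9.29, and lower at E13.5 by 0.32 on the log2 scale. Sema3c, a class 3 semaphorin of the outflow tract and other mesenchyme, was higher distally at E10.5 (0.33) and lower at E13.5, with 10.09, 10.02 and 10.22 against 10.98, 10.87 and 11.

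At single ages of the maxilla, 32, 31, 43, 16 and 38 guidance genes were called in order of age, against 20.2%, 34.7%, 39%, 15.7% and 33.7% of all genes. The largest number fell at E12.5, where 27 were higher and 16 lower in the distal piece, as were 23.3% and 15.7% of all genes. Sema3e was higher by 1.60 at that age, with distal arrays at 7.45, 7.47 and 7.57 and proximal arrays at 5.73, 5.79 and 6.17. Epha4 was higher by 1.33, with 11.08, 11.09 and 11.04 against 9.62, 9.58 and 10.01, and Sema5a by 1.14, with 10.51, 10.46 and 10.23 against 9.33, 9.09 and 9.37. Epha5 was lower by 1.57 on the log2 scale, with 6.2, 6.05 and 6.25 against 7.69, 7.62 and 7.89. Epha7, a receptor of the EphA group, differed by 0.64 at E10.5 (0.58 without distal replicate 1) and by -0.69 at E14.5, all called. At E10.5, 30 genes were called without distal replicate 1 and 15 when only the arrays of that age and jaw were fitted.

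The jaws were compared on the days when arrays of both share a batch, E11.5 and E12.5, over distal and proximal pieces together. At E11.5, 36 guidance genes (55.4%) were called, against 33.5% of all genes, with 23 higher and 13 lower in the mandible (21.2% and 12.3% of all genes). Over the pieces together ephrins stood on the mandibular side, with 6 of 8 called higher and none lower, under either scaling as well. Distally, however, Efna1 and Efna4 had lower group means in the mandible, at 8.71 and 10.18 against 8.77 and 10.36. Proximally they read 8.64 and 10.35 in the mandible against 8.24 and 9.83. Efnb3 was higher by 0.40 ± 0.0559, with mandibular arrays from 9.37 to 9.86 all above the maxillary arrays from 9.13 to 9.27, and Efna2 was higher by 0.30 ± 0.0526. Among the receptors of ephrins all of Ephb1 (0.49), Ephb4 (0.41), Ephb3 (0.27) and Ephb6 (0.19) were called higher in the mandible, the last only without further scaling. For Ephb6 the distal group means were 7.14 in the mandible and 7.33 in the maxilla, and the proximal ones 7.38 and 6.81. Epha5 was lower by 0.89 ± 0.152 on the log2 scale.

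Sema3e was the only guidance gene for which all 6 maxillary arrays at E11.5, from 6.98 to 7.26, exceeded all 6 mandibular arrays, from 5.03 to 6.83, a difference of -1.07 ± 0.116 (adjusted p = 1.28e-10). Sema3a was higher in the mandible by 0.55 ± 0.0412, with 10.16 to 10.53 against 9.46 to 10.08, and Sema5a by 0.75 ± 0.0912. Dcc was lower in the mandible by 1.15 ± 0.196 on the log2 scale, Nrp1 by 0.48 ± 0.0686, Sema6d by 0.43 ± 0.0722 and Slit2 by 0.40 ± 0.0631, whereas Robo1 (0.38) and Robo4 (0.34) were higher. For Nrp1 and Sema6d only the proximal mandible was lower, with group means of 10.56 and 9.58 against 11.76 and 10.74. Distally they read 10.09 and 9.56 in the mandible against 9.85 and 9.26. In all, 9 guidance genes had every mandibular array above every maxillary one, and how many of all genes did so was not counted. Without the 2 raised arrays 35 genes were called. In this comparison all 15 neuronal markers were lower in the mandible (median -2.85, summed level 11.75 to 12.33 against 12.8 to 16.11) and all 14 muscle markers were higher (median 1.87, 13.19 to 13.73 against 10.31 to 12.62). Their part was not tested.

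At E12.5, 35 guidance genes (53.8%) were called between the jaws, against 41.3% of all genes, with 15 higher and 20 lower in the mandible (24% and 17.3% of all genes). Sema6d was lower by 1.11 ± 0.0722 on the log2 scale (adjusted p = 5.47e-18), with mandibular arrays from 9.35 to 9.91 and maxillary arrays from 9.9 to 11.53. The difference lay mostly in the proximal pieces, with group means of 9.42 against 11.52, and distally they were 9.84 against 9.95. Epha3 was higher by 0.51 ± 0.0464, with mandibular arrays from 11.53 to 11.57 above all maxillary arrays, which ran from 10.65 to 11.43. Sema3c was higher by 0.57 ± 0.0727, with 9.67 to 10.04 against 9.17 to 9.39, and Efna1 by 0.50 ± 0.0508, with 8.67 to 8.9 against 8.06 to 8.48. Both neuropilins were lower over the pieces together, Nrp2 by 0.37 and Nrp1 by 0.31 on the log2 scale. Distally, however, Nrp1 was higher in the mandible, with group means of 11.18 against 10.78, and proximally it read 11.07 against 12.08. Ntn1 was lower by 0.41, with mandibular and maxillary group means of 8.66 and 9.99 distally but 10.19 and 9.68 proximally. Sema5a, higher in the mandible a day before, was called lower by 0.27, although another of its probe sets was called higher by 0.21. In the mandible all 15 neuronal (median -2.34), all 5 glial (median -0.76) and 13 of 14 muscle markers (median -1.13) were lower. All 16 epithelial markers (median 1.0), 10 of 14 cartilage markers (median 1.36) and 5 of 7 bone markers (median 1.41) were higher. The part of these was not tested.

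Steps of a single day inside a batch were available for E10.5 to E11.5 and E13.5 to E14.5 in the mandible and for E12.5 to E13.5 and E13.5 to E14.5 in the maxilla. Each step averaged the distal and proximal pieces, which could change by different amounts. From E10.5 to E11.5 in the mandible, 31 guidance genes (47.7%) changed, against 44.3% of all genes. There were 23 that rose and 8 that fell (27.7% and 16.5% of all genes). With arrays centred on their medians this became 13 and 25, and 2694 of all genes rose and 8084 fell in place of 5044 and 3010. That centring moves the median of all genes from 0.03 to -0.14, so the directions of small changes in this step depend on the scaling. Quantile normalization gave 19 and 16.

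**Figure D4:**
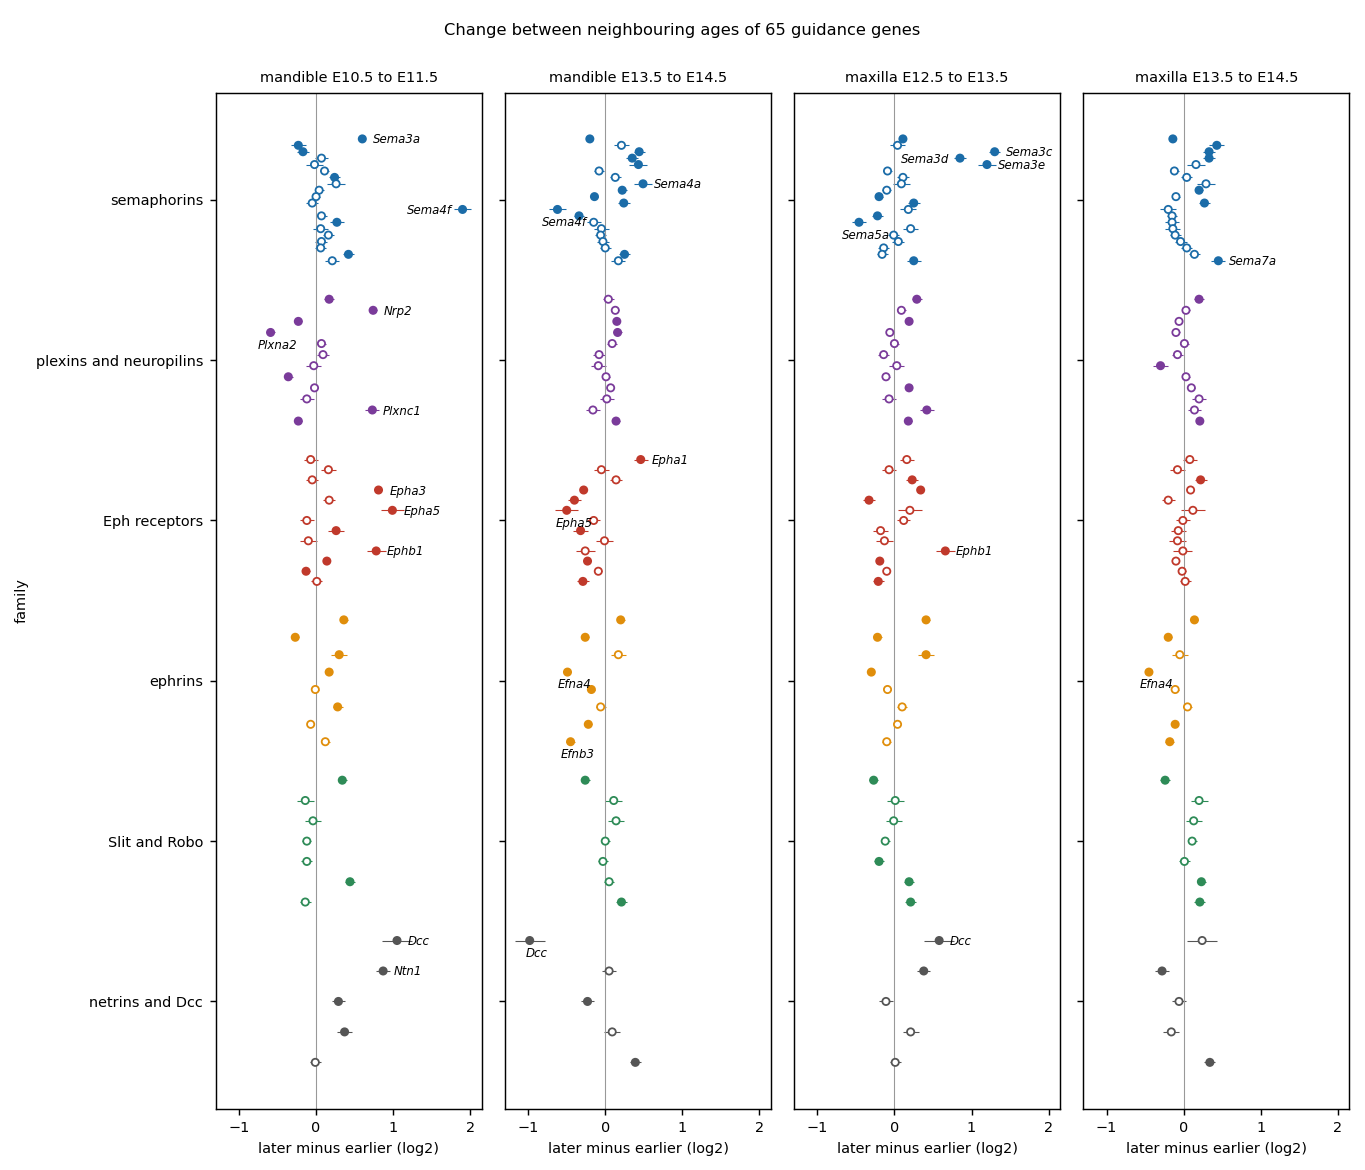
Log2 difference of later minus earlier embryonic day for the 65 guidance genes, grouped by family, in 4 steps inside batches, with bars of 1 SE and filled points where the adjusted p was under 0.05. Sema4f rose by 1.90 from E10.5 to E11.5 in the mandible, and Sema3c and Sema3e rose by 1.30 and 1.20 from E12.5 to E13.5 in the maxilla.

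Sema4f had the largest rise of that step, from arrays between 6.07 and 6.48 at E10.5 to arrays between 7.91 and 8.7 at E11.5 (1.90 ± 0.105, adjusted p = 9.96e-21). Ntn1 rose by 0.87 ± 0.0869, with all later arrays (8.3 to 8.9) above all earlier ones (7.26 to 8.1), and Nrp2 by 0.74 ± 0.0546, with 10.28 to 10.46 above 9.25 to 10.1. Epha3 (0.81), Ephb1 (0.78), Plxnc1 (0.73) and Sema3a (0.60) rose as well. The rise of Epha3 was mostly proximal, with group means from 10.14 to 11.58, against 10.16 to 10.34 distally. Plxna2, a plexin of the A group, fell by 0.59 ± 0.056 on the log2 scale, with later arrays from 8.61 to 8.83 below the earlier ones from 9.16 to 9.56, and Plxnb1 fell by 0.36. All of these held under both other scalings. Dcc rose by 1.05 and Epha5 by 0.99 from E10.5 groups at or under 4.78 (for Epha5 the proximal one), so these are lower bounds at best. Muscle markers rose in the same step (11 of 14, median 1.38), as did 9 of 15 neuronal markers (median 0.57), and their part was not tested. In this step 30 guidance genes changed without the 2 raised arrays of E11.5.

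From E13.5 to E14.5 in the mandible 32 guidance genes (49.2%) changed, against 30.6% of all genes, with 14 rising and 18 falling (13.3% and 17.2% of all genes). Of the 8 ephrins 5 fell and 1 rose, and of the 13 Eph receptors 6 fell and 1 rose. Efna4 fell by 0.49 ± 0.0404 on the log2 scale (adjusted p = 4.35e-14), from arrays between 9.81 and 10.13 to arrays between 9.29 and 9.6, and Efnb3 by 0.45 ± 0.0559, from 9.53 to 9.71 down to 9.06 to 9.25. Sema4f fell by 0.62 ± 0.105, with no overlap of the arrays. Dcc fell by 0.98 ± 0.196 and Epha4 by 0.40 ± 0.0819. Sema4a (0.49), Sema3c (0.44) and Sema3e (0.43) rose, and Epha1 rose by 0.46, a call lost with the mean of its probe sets (0.14, adjusted p = 0.0979). All 12 macrophage markers rose (median 0.61), as did 6 of 7 bone markers (median 0.77) and 12 of 14 muscle markers (median 0.91), while 9 of 15 neuronal markers fell (median -0.48). The part of these was not tested.

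From E12.5 to E13.5 in the maxilla 30 guidance genes (46.2%) changed, against 44.1% of all genes, with 20 rising and 10 falling (24.5% and 19.6% of all genes). With arrays centred the split became 11 and 26, and that of all genes 2733 and 8907 in place of 4455 and 3572, with the median of all genes at -0.16 in place of -0.02. Quantile normalization gave 14 and 19. Secreted semaphorins made the largest changes. Sema3c rose by 1.30 ± 0.0727 (adjusted p = 4.45e-20), from arrays between 9.17 and 9.39 to arrays between 10.46 and 10.79. Sema3e rose by 1.20 ± 0.116 and Sema3d by 0.85 ± 0.0802. Ephb1 (0.66) and Efna1 (0.41) rose with no overlap of the arrays, while Sema5a fell by 0.46 ± 0.0912, Efna4 by 0.30 ± 0.0404 and Robo1 by 0.27 ± 0.0609. These held under both other scalings, whereas the rise of Dcc (0.58) was lost with quantile normalization (0.43, adjusted p = 0.0656) and without replicate 2 (0.57, adjusted p = 0.0629), and that of Ntn1 (0.38) turned to -0.02 with the mean of its probe sets. All 7 bone markers rose in this step (median 2.17), as did 13 of 14 cartilage (median 1.86), 12 of 14 muscle (median 0.87), 14 of 16 epithelial (median 0.78) and 12 of 12 macrophage markers (median 0.66). Of the 15 neuronal markers 9 rose and 2 fell (median 0.47). The part of these was not tested.

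From E13.5 to E14.5 in the maxilla 21 guidance genes (32.3%) changed, against 23.1% of all genes, with 13 rising and 8 falling (10.3% and 12.9% of all genes). Without replicate 1, 2 or 3 of every group, 13, 7 or 12 were called. Efna4 fell again, by 0.45 ± 0.0404 on the log2 scale (adjusted p = 3.71e-12), from arrays between 9.42 and 9.63 to arrays between 8.86 and 9.28. Sema7a rose by 0.45 ± 0.0918, Sema3c by 0.33 ± 0.0727, Sema3d by 0.33 ± 0.0802 and Plxnd1, the endothelial plexin that binds Sema3e, by 0.21 ± 0.0453. Of the 13 Eph receptors only Epha2 was called, at 0.22, a call lost without any replicate number. All 7 bone markers rose (median 1.56), all 12 macrophage markers rose (median 0.43) and 13 of 15 neuronal markers fell (median -0.82), and their part was not tested.

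Efna4 was lower at the later age in all of the 3 steps after E12.5 and Robo1 likewise, by 0.26, 0.27 and 0.24 on the log2 scale, the last lost without replicate 1 (-0.14, adjusted p = 0.184). From E12.5 to E13.5 in the maxilla Efna4 fell mainly distally, with group means from 10.16 to 9.6, against 9.53 to 9.5 proximally. The 2 maxillary steps share the arrays of E13.5. Sema3c and Sema3d rose in all of these steps.

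The other genes of the guidance pathways were followed as well, with lists chosen from knowledge of the pathways and with earlier results of these data known. Of 27 other guidance ligands, receptors and adhesion partners, 19 (70.4%, against 50.6% of all genes) were called in the maxilla, 4 higher and 15 lower distally, and 18 (66.7%, against 36.3%) in the mandible, 4 higher and 14 lower. In the maxilla those with the smallest p were neuronal adhesion molecules, L1cam (-2.10 ± 0.0606), Islr2 (-2.87 ± 0.0957) and Cntn2 (-2.13 ± 0.0743), and Draxin (-1.57 ± 0.057), a secreted ligand of Dcc. In the mandible those with the smallest p were Flrt2 (-0.62 ± 0.0303), a ligand of Unc5 receptors, Rgmb (-0.76 ± 0.0425) and Hjv (-1.05 ± 0.0749), members of the repulsive guidance family, and Nrcam (-1.26 ± 0.0918). Of 48 signalling partners inside the cell, 31 (64.6%, against 50.6%) were called in the maxilla, 9 higher and 22 lower, and 29 (60.4%, against 36.3%) in the mandible, 6 higher and 23 lower. Crmp1, Dpysl4 and Cdk5r1, which act on the cytoskeleton of neurons, differed by -1.88, -1.41 and -1.33 in the maxilla and by -0.54, -0.63 and -0.63 in the mandible.

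The Unc5 receptors also bind netrin 1, and they were singled out after their values were seen. Unc5b was higher distally in both jaws, by 0.59 ± 0.0448 in the mandible and 0.72 ± 0.0448 in the maxilla. Unc5c was higher distally in the mandible by 0.73 ± 0.0555 and lower in the maxilla by 0.35 ± 0.0555 on the log2 scale. Between the jaws Unc5c was higher in the mandible by 1.35 ± 0.0878 at E11.5 and by 1.01 ± 0.0878 at E12.5, where Dcc differed by -1.15 and by an uncalled -0.34. At E11.5, 16 of the 27 other ligands and receptors (59.3%, against 33.5% of all genes) were called between the jaws, 7 higher and 9 lower in the mandible, with Cdon (0.72), a hedgehog co-receptor, among the higher ones. At E12.5, 19 (70.4%, against 41.3%) were called, 4 higher and 15 lower.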

How the data were processed

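The deposited values are log2 signals of 60 Affymetrix arrays made with RMA (version not given) per the submitters' processing notes, which corrects background, normalizes and summarizes probes. They were used without further normalization. Of 45101 probe sets, 64 controls and all without exactly 1 gene symbol were left out. Of the remaining 34945, each of 18193 genes was represented by its brightest probe set, judged by the mean of the 60 arrays.

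A mean for each of 20 groups was fitted to all arrays with limma 3.58.1 in R 4.3.3 (40 residual degrees of freedom). Contrasts were tested 2-sided with eBayes and an intensity trend, and p-values were adjusted by Benjamini-Hochberg over all genes. The step was tested on simulated data. SDs are pooled within groups.

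Members and gene lists were chosen with earlier results of these data known. Every member could be named. Single-array values were given for up to 2 called members per family and direction with the largest difference and a mean of at least 6 in the higher group, and further members with single-array values were chosen after their values were seen. Up to 4 members of other lists were named by smallest p. Alternatives covered scaling, probe sets, the prior, weights, replicate block and left-out arrays. The runs without distal maxilla E10.5 replicate 1 and with a replicate block within the maxilla at E10.5 were added after the data were seen. Figures were drawn with matplotlib 3.10.9. Precision is limited by the 3 arrays of each group.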

Additional observations from a re-analysis of the deposited data

Results flagged for a closer look

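The position difference of the mandible minus that of the maxilla was tested as an interaction in the fit over all genes. It was called for 41 guidance genes (63.1%, against 39.9% of all genes). The position difference changed with age for 47 in the mandible (72.3%, against 43.6%) and 42 in the maxilla (64.6%, against 37.7%). The interactions set batches against each other, and no explanation was tested.

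Among semaphorins the interaction was 1.49 for Sema4f, 1.09 for Sema6d, 0.30 for Sema4d, -0.88 for Sema5a and -1.16 for Sema3e. Among plexins and neuropilins it was 0.96 for Nrp1, 0.46 for Plxna4, -0.33 for Plxna2 and -0.37 for Plxnb2. Among Eph receptors it was 0.95 for Epha5, 0.34 for Epha7, -0.40 for Ephb4, -0.40 for Epha3, -0.41 for Epha1 and -0.44 for Epha4, and the interaction of Epha1 was -0.05 and not called with the mean of its probe sets (adjusted p = 0.554). The ephrins gave 0.40 for Efnb2, -0.20 for Efna5, -0.25 for Efnb3 and -0.25 for Efna4. Slit2 gave -0.41, Robo1 -0.24 and Robo4 -0.23, and Ntn1 gave -0.86 and Dcc -0.83, the last from groups that include levels at or under 4.78.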

How the results depend on the processing

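Of 163 results for single guidance genes, 84 kept their direction and their side of the threshold under every alternative run. Over 2017 alternatives of these results, 1844 kept both, 170 lost the call and 3 turned. Those that turned did so when the probe sets of a gene were averaged: Slit2 by position in the mandible (0.01), Sema3b from E10.5 to E11.5 in the mandible (0.02) and Ntn1 from E12.5 to E13.5 in the maxilla (-0.02). Array weights gave 34 called genes from E13.5 to E14.5 in the maxilla in place of 21. Fitting only the arrays compared gave 3 by position in the mandible at E11.5 and 15 in the maxilla at E10.5. When each group mean stood for 1 sample, 3 genes were called by position in the mandible (Ntn1, Sema4a and Sema5b), 21 in the maxilla, without Sema4f (adjusted p = 0.0622), and 2 by jaw.

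Leaving out replicate 1, 2 or 3 of every group gave 27 to 31 called genes by position in the mandible, 35 to 41 in the maxilla and 35 to 41 by jaw. It gave 28 to 33 between jaws at E11.5 and 28 to 30 at E12.5. For age steps it gave 24 to 28 and 23 to 27 in the mandible and 23 to 30 and 7 to 13 in the maxilla. At single ages from E10.5 to E14.5 it gave 11 to 20, 7 to 14, 21 to 25, 12 to 23 and 14 to 19 in the mandible and 23 to 27, 24 to 29, 37 to 42, 11 to 13 and 27 to 35 in the maxilla, and for position by age 32 to 38 and 30 to 40. Fewer arrays were fitted in each.

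Replicate numbers paired the arrays in no group but the maxilla at E10.5, going by the data alone. Of 30 pairs of a distal and a proximal array with the same number, 9 had a correlation of deviations over 0.1, the range was -0.36 to 0.44, and 10 correlated best with their own number. In the maxilla at E10.5 all 3 did both (0.34, 0.17 and 0.26), and a replicate block within these 6 arrays, added after the data were seen, gave 37 called genes in place of 32 at that age and 45 in place of 44 over all ages. The replicate block over all arrays ended 2 calls, those of Sema3c (-0.17, adjusted p = 0.0509) and Sema3b (-0.23, adjusted p = 0.051) from E10.5 to E11.5 in the mandible, and changed no other call of a single gene. Epha5 by position in the mandible, Slit1 between the jaws at E11.5 and Sema3b from E10.5 to E11.5 lost their calls without the 2 raised mandibular arrays (adjusted p = 0.0899, 0.166 and 0.421). Without dim genes, 59 guidance genes remained, of which 62.7% were called by position in the mandible and 72.9% in the maxilla, against 48.0% and 65.7% of genes.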
